A study of Mus musculus with 2 samples.

Results

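The potassium channel genes are the protein-coding genes of the mouse whose symbol starts with Kcn. In GENCODE release M21 on build mm10 they were 94 of 21911 protein-coding symbols, and 77 encode subunits that form a pore, while the other 17 are auxiliary subunits and Kcnrg. Chromatin accessibility at these genes was measured by DNase-seq, which sequences the ends of DNA fragments released by DNase I from open chromatin, in the gastrocnemius, a calf muscle rich in fast fibres. The material came from male B6CASTF1/J mice, the F1 cross of C57BL/6J and CAST/EiJ, at 25 days of age, with 1 library for each of 2 biological replicates and no other group or treatment. The donor identifier is the same in both libraries, and that they come from different animals is known only from the biosample descriptions, which number the males differently. Sequencing instruments are named for replicate 1 alone.

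Potassium channels let potassium leave or enter the cell along its gradient and thereby hold the resting potential and end the action potential. Voltage-gated channels open on depolarisation, inward rectifiers pass current best near rest, tandem pore domain channels carry background leak, and calcium-activated channels couple internal calcium to the membrane. In skeletal muscle the inward rectifiers stabilise the fibre membrane, the ATP-sensitive channel links it to energy state, and voltage-gated channels of the Kcnc group with their Kcne partner repolarise it, while other channel genes serve the vessels, nerve and glia within the muscle.

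A promoter peak is a peak of the longer list of its library that overlaps the 1 kb on either side of any annotated start of a gene, and a gene with one is called open. The sequences below are reference bases of mm10 (C57BL/6J), which may differ from the CAST/EiJ copy the animals also carry, written 5′ to 3′ on the strand given in brackets with the coordinates. Capitals mark bases that lie in a footprint, a short stretch protected from DNase I within open chromatin, in both libraries. Shown first are upstream parts of peaks at the starts of 4 channel genes of the muscle fibre, for Kcnj2 at chr11:111065981-111066163 (+), Kcnn3 at chr3:89519961-89520160 (+), Kcnj11 at chr7:46100765-46100920 (-) and Kcna7 at chr7:45405181-45405480 (+).
Kcnj2 promoter: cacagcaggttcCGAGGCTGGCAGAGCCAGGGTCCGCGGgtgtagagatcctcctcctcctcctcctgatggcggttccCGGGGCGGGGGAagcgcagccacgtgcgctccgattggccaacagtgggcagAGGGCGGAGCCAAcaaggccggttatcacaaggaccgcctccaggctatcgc
Kcnn3 promoter: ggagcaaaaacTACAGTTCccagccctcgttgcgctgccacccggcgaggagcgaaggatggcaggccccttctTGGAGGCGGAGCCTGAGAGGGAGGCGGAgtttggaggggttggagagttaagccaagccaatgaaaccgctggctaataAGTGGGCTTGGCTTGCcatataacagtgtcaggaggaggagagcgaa
Kcnj11 promoter: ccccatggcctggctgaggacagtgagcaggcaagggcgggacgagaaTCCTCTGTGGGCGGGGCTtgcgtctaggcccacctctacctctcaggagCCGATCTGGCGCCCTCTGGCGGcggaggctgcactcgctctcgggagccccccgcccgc
Kcna7 promoter: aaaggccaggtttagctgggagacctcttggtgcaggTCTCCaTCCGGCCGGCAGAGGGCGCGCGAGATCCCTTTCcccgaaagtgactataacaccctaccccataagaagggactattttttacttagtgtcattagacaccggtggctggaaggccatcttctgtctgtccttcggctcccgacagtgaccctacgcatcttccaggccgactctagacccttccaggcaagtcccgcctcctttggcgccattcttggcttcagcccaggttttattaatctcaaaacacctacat
The Kcnj2 stretch held 2 copies of GGGCGG, the core of the SP/KLF factors, and both touched footprinted bases. The Kcnj11 stretch held 3 copies, of which 1 did, and a footprinted match to the CTCF core. None of CAGCTG, the MEF2 motif or the CArG box, which are typical of muscle gene control, was found in these 4 stretches.

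Distal peaks, those outside every annotated start window, are shown for 3 members, at chr7:46393221-46393460 (+) upstream of Kcnc1, chr7:143153941-143154120 (+) in an intron of Kcnq1 and chr4:152434921-152435120 (-) in an intron of Kcnab2. They were chosen as the strongest shared distal peaks of genes described below.
Kcnc1 distal: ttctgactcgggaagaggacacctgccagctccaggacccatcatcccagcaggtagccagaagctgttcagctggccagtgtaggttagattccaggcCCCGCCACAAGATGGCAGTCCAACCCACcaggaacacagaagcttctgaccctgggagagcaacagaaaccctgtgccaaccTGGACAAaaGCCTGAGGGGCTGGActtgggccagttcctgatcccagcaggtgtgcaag
Kcnq1 distal: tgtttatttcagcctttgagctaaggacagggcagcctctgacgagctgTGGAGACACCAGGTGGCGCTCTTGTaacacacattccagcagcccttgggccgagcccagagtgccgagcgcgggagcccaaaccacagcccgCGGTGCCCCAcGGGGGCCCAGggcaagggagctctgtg
Kcnab2 distal: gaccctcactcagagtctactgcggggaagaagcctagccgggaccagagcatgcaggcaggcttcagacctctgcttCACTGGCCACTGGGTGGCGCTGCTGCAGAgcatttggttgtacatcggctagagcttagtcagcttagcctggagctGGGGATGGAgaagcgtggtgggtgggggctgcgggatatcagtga
Each of the 3 holds a footprinted match to the CTCF core, and the Kcnc1 peak also holds a CAGCTG, the E-box of the myogenic factors, outside the footprinted bases.

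Potassium channel promoters were open in the muscle about as often as not, and those that were open gave weak signal. A promoter peak was found for 59 of the 94 members in replicate 1 and 61 in replicate 2. Both libraries had one for 53 members, or 56.4% (Wilson 95% interval 46.3 to 66.0%, which covers counting error only), where 63.0% of all protein-coding genes were open in both. Neither library had one for 27 members, a lower share than the 7079 of 21911 among all protein-coding genes. The background in the single libraries was 66.5% in replicate 1 and 64.2% in replicate 2. The interval of the members reached past the background share. A further 14 members were open in 1 library alone, 6 in replicate 1 and 8 in replicate 2. Among all protein-coding genes 764 were open in replicate 1 alone and 266 in replicate 2 alone, both lower shares than in the members. With the stronger 50% of the peaks of each library, 35 members or 37.2% were open in both, against 55.8% of all genes, and with the stricter list 39 or 41.5%, against 57.7%.

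Peak signal, as deposited by the authors, is here read as tags scaled to the size of the library, and the strongest promoter peak of each gene was used. Its median over open members was 0.869 in replicate 1 and 1.04 in replicate 2, against 3.57 and 3.43 over all open protein-coding genes. On that reading the medians stand for 147 and 122 tags in the members, against 604 and 402 in all genes. Ranked among all open protein-coding genes, the median member stood at percentile 15.3 in replicate 1 and 13.9 in replicate 2. In replicate 1, 43 of 59 open members, and in replicate 2, 47 of 61, fell in the weakest 25% of open genes, and 2 members, Kcnab2 and Kcnj2, stood above the median of all open genes in both libraries. Fewer cells with an open site and less opening in each cell cannot be told apart in bulk tissue.

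**Figure D1:**
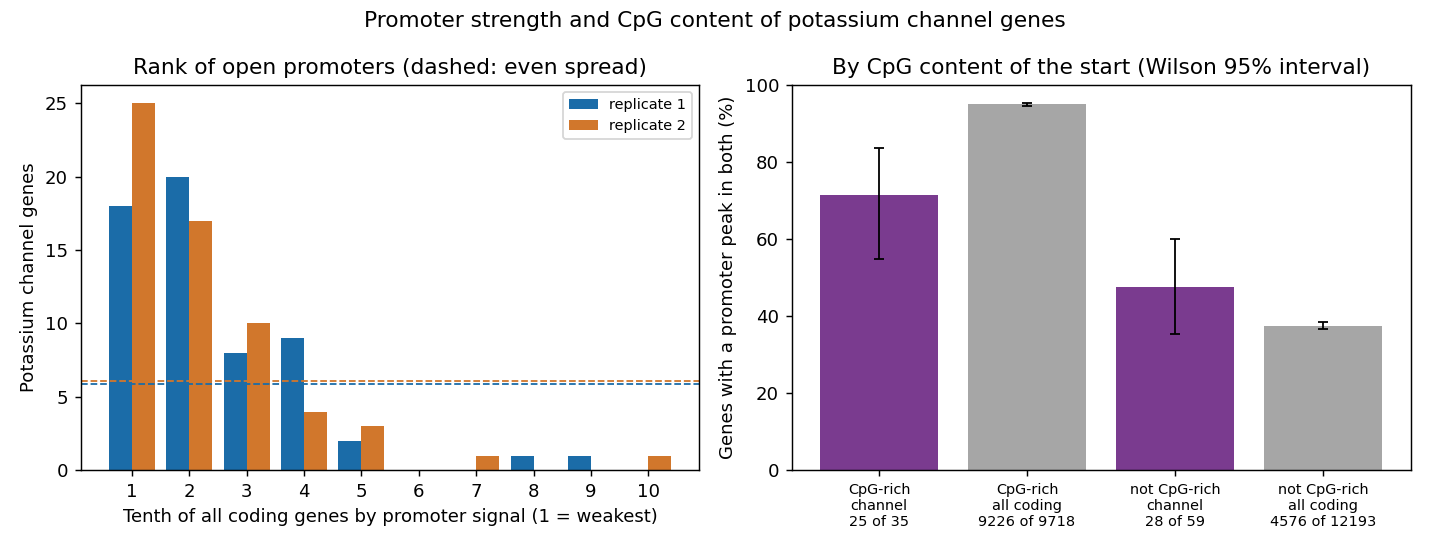
The left panel counts open potassium channel genes (vertical axis) by 10 equal classes of all open coding genes ranked on promoter signal, weakest first, with bars for replicates 1 and 2 and dashed lines where an even spread would lie. The weakest class holds 18 and 25 members. The right panel gives the percent of genes open in both libraries with Wilson 95% intervals, for channel genes left of all coding genes, at CpG-rich and other starts.

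Peaks shared with a neighbouring gene bore on the count of open promoters. The strongest promoter peak also lay in the start window of another coding gene for 1 of 59 open members in replicate 1 and 1 of 61 in replicate 2 (Kcnab2, with Nphp4), against 18.9% and 19.6% of all open genes. Counting unshared promoter peaks alone, 52 members, or 55.3%, were open in both libraries, against 51.9% of all genes. The direction against the background thus turned round. A gene whose only promoter peaks were shared counts as not open here. Since shared peaks were more frequent among all genes, this scoring lowers their share more than that of the members. The weakness of signal did not turn with the direction. Among genes whose strongest peak was unshared the median signal was 0.867 and 1.03 in the members and 3.12 and 3.11 in all genes.

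The labelled tissue was checked against muscle fibre markers, of which 6 of 6, among them Ckm and Acta1, were open in both libraries with median signals of 5.67 and 4.29. In 3 of them, Actn3, Mylpf and Myom1, the strongest peak was shared with another coding gene. Fibro-adipogenic progenitor markers were open in 3 of 3 cases and leukocyte markers in 2 of 3. Every one of the 9 channel genes listed for the muscle fibre was open in both libraries, against 63.0% of all genes. In the stricter list 8 of the 9 were, against 57.7% of all genes. The strongest was Kcnj2, the inward rectifier Kir2.1 that sets the resting potential of the fibre. Its promoter peak gave 5.88 in replicate 1 against 4.14 in replicate 2 (mean 5.01 ± 1.23, SD, n = 2) and was centred at −74 bp from the start. Kcnj12, the related rectifier Kir2.2, had 1.51 and 1.10, well below Kcnj2 in each library. Kcnj11, the pore Kir6.2 of the ATP-sensitive channel, had 2.28 and 1.78. Its start windows held 7 listed peaks in replicate 1 and 6 in replicate 2, some of which overlap each other. The strongest was centred 24 bp into the gene.

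Voltage-gated channels of the fibre had lower signals than Kcnj2. Kcna7, the Kv1.7 channel found in skeletal muscle and heart, had a strongest peak of 2.16 in replicate 1 and 2.66 in replicate 2, but not at the same place. The stretch upstream of its start gave 1.69 and 2.66, and one 717 bp (replicate 1) or 727 bp (replicate 2) inside the gene gave 2.16 and 1.58, so both libraries had both peaks and differed in which was higher. Kcnc1, the fast Kv3.1 channel, had 1.38 and 1.93. Kcnc4, the Kv3.4 channel of muscle, had 0.822 and 0.983, and Kcne3, which encodes the MiRP2 subunit that pairs with Kv3.4, had 0.822 and 0.940. The signals of this pair were close to each other in each library, and the Kcne3 peak lay at an internal start over 2 kb into the gene.

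Calcium-activated channels of the fibre were Kcnn3 and Kcnma1. Kcnn3, the small-conductance channel SK3 known from developing and denervated muscle, had 3.48 and 2.31 (mean 2.90 ± 0.832, SD, n = 2), the third highest of all members in replicate 1. Kcnma1, the pore of the large-conductance BK channel, had 1.25 and 1.36. Over the muscle fibre list the median signal was 1.51 and 1.78. These medians lay above those of all open members and below those of all open genes. The lists by role were drawn up with earlier results of these data known, so their counts are descriptions.

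**Figure D2:**
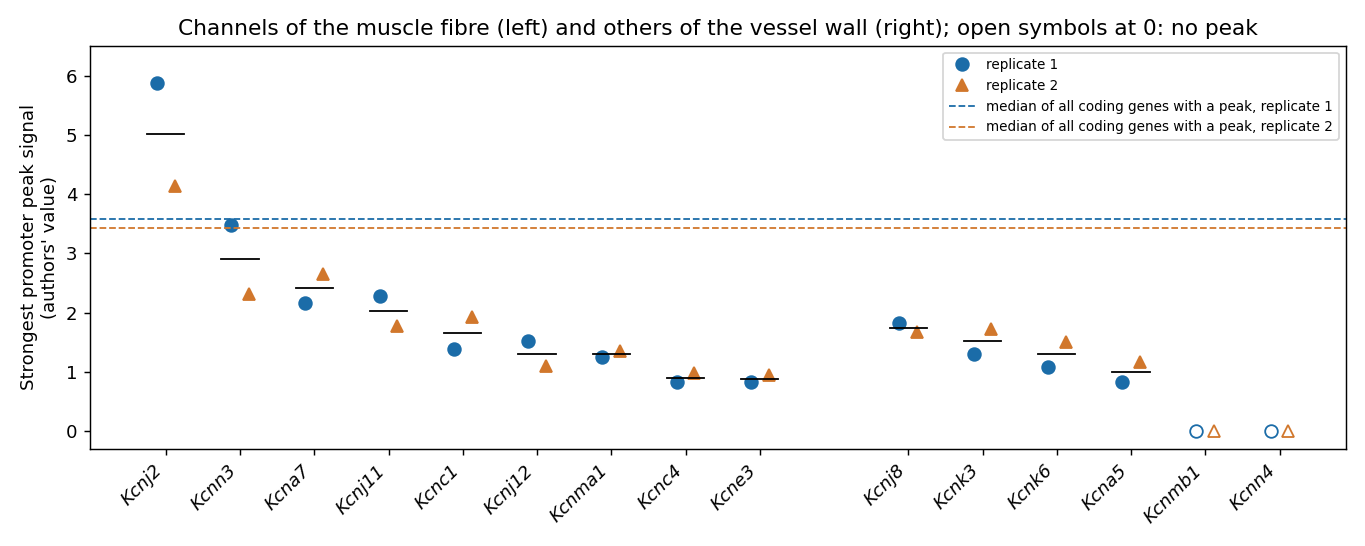
Strongest promoter peak signal (vertical axis, the authors' value) of the 9 muscle fibre channel genes on the left and of vessel wall genes not among them on the right, with a symbol for each replicate, a bar at the mean and dashed lines at the medians of all open coding genes. Kcnj2 is the gene above both dashed lines, and Kcnmb1 and Kcnn4 are drawn at 0 because neither library had a promoter peak.

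Of 9 channel genes listed for the vessel wall, 7 were open in both libraries, against 63.0% of all genes. Among these 7, Kcnj2, Kcnn3 and Kcnma1 are also in the muscle fibre list. Kcnj8, the vascular ATP-sensitive pore Kir6.1, had signals of 1.83 and 1.67, close to those of Kcnj11. Kcnk3, the leak channel TASK-1, had 1.30 and 1.73, Kcnk6, the TWIK-2 channel, had 1.08 and 1.50, and Kcna5, the Kv1.5 channel of smooth muscle, had 0.828 and 1.16. All 3 were higher in replicate 2. Kcnmb1, the BK subunit typical of smooth muscle, and Kcnn4, the intermediate-conductance channel of endothelium and blood cells, had no promoter peak in either library. Kcnmb1 lies within Kcnip1, whose own promoter was open with 1.41 and 1.11. Markers of these cells were themselves accessible, with promoter peaks in both libraries for 5 of 5 endothelial and 3 of 4 smooth muscle and pericyte markers. The signals of the endothelial markers ranged from 0.597 to 2.15 in replicate 1 and from 0.752 to 2.37 in replicate 2. Open smooth muscle and pericyte markers ranged from 1.66 to 2.60 in replicate 1 and from 0.684 to 1.99 in replicate 2. The signals of Kcnj8, Kcnk3, Kcnk6 and Kcna5 lay within the endothelial ranges. The lower end of the smooth muscle and pericyte range in replicate 2 was Acta2, which had no promoter peak in replicate 1. Over the 3 markers open in both libraries the replicate 2 range began at 1.59, at Cspg4. Against these 3 markers, Kcnj8 and Kcnk3 lay within the range in replicate 2, and Kcnk6 and Kcna5 lay below it. In replicate 1 Kcnj8 lay within the range of the same 3 markers, and Kcnk3, Kcnk6 and Kcna5 lay below it.

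In the list for nerve and glia, 5 of 8 genes were open in both libraries, against 63.0% of all genes. Kcnab2, a beta subunit that escorts Shaker-type channels to the axon membrane, had the highest signal of all members with 8.62 and 7.30 (mean 7.96 ± 0.934, SD, n = 2). That peak is the one shared with Nphp4. Kcnj10, the Kir4.1 channel of glia, had 1.17 and 0.991. Kcna2, the axonal Kv1.2 channel, had 0.869 and 1.04, whereas Kcna1, its axonal partner, and Kcna6, a gene outside the list, had a peak in replicate 2 alone, of 0.555 and 0.521. Kcnq3, a subunit of the neuronal M current, had 0.367 and 0.461. Schwann cell markers were open in 3 of 4 cases, with signals from 2.99 to 7.49 in replicate 1 and from 3.34 to 6.74 in replicate 2. Sox10 had no promoter peak in either library. How far each cell type contributes to a channel promoter was not tested.

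Few channels listed for brain or for epithelium, ear, retina and sperm were open in both libraries, against 63.0% of all genes. In the brain list 1 of 10 was open in both, Kcnip4, with 0.331 and 0.350. Those open in 1 library were Kcnh3 in replicate 1 and Kcnh7, Kcnj3 and Kcnv1 in replicate 2, with no signal above 0.864. The other 5, Kcnj6, Kcnj9, Kcnk9, Kcns1 and Kcnt1, were closed in both. The second list also had 1 of 10 open in both, Kcnk5, the TASK-2 channel of kidney, with 2.86 and 3.32. That was the third highest mean percentile of all members. Of neuron markers 4 of 5 were open in both libraries, with signals between 0.349 and 1.86 in replicate 1 and between 0.410 and 2.22 in replicate 2.

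Among the 16 subfamilies, 4 had every member open in both libraries. These were Kcnc with 4 genes, Kcnip with 4, Kcnab with 3 and Kcnb with 2. With the stricter list Kcnc and Kcnip kept 2 of 4 each, and with the stronger 50% of peaks no subfamily among these kept every member, since Kcnc had 3 of 4, Kcnip 2 of 4, Kcnab 2 of 3 and Kcnb 1 of 2. The largest subfamilies had the most closed members by number, which grows with size. Among smaller ones, Kcne had 3 of 5 open in neither library and Kcnmb 2 of 4, where all protein-coding genes had 7079 of 21911. Of the 15 inward rectifiers (Kcnj) 6 were open in both and 8 in neither, and of the 14 tandem pore domain genes (Kcnk) 7 were open in both and 6 in neither. The Wilson 95% interval was 19.8 to 64.3% for Kcnj and 26.8 to 73.2% for Kcnk, so these shares overlap each other and the 63.0% of all genes.

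Among the voltage-gated pore genes, of the 8 Kcna genes, which are of the Shaker type, 4 were open in both libraries, Kcna2, Kcna3, Kcna5 and Kcna7, and Kcna4 in neither. Kcnb2, a delayed rectifier, had 0.609 and 0.675. Kcnc2, a Kv3 channel mainly of brain, had the lowest Kcnc signals at 0.390 and 0.641. All Kcnd genes, the Kv4 channels of transient current, were weak, with a highest value of 0.491 in replicate 1 and 0.837 in replicate 2.

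The electrically silent genes, whose proteins work only together with other pore subunits, were open in both libraries in 7 of 10 cases. Those 7 were Kcnf1, Kcng1, Kcng2, Kcng3, Kcng4, Kcns2 and Kcns3. Their signals stayed between 0.373 and 0.958 in replicate 1, and the highest in replicate 2 was Kcns2 with 1.16. Every open one of them fell in the weakest 25% of open genes in its library. Kcns2 had the highest mean, at 0.905 and 1.16. Kcnv1 was open in replicate 2 alone, and Kcns1 and Kcnv2, a gene known from retina, in neither.

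The Kcnh genes, of the ether-a-go-go type, were open in both libraries in 4 of 8 cases and in 1 library in the other 4. Kcnh1 had 2.53 and 2.74 from a single peak at its start. Kcnh2, the ERG1 channel, had 2.16 and 1.43 from different places, 21774 bp into the gene at an internal start in replicate 1 and at −266 bp from the 5′ end in replicate 2. Both libraries had both peaks, with 2.16 and 1.03 at the internal start and 1.14 and 1.43 near the 5′ end. Of the Kcnq genes, Kcnq5, the Kv7.5 channel of smooth and skeletal muscle, had 0.692 and 1.14. It was in the weakest 25% of open genes, as was Kcnq3.

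Of the inward rectifiers outside the lists above, Kcnj4, the Kir2.3 channel, had 1.04 and 1.14. Kcnj1, Kcnj5, Kcnj6, Kcnj9, Kcnj13, Kcnj14, Kcnj15 and Kcnj16 had no promoter peak. The G protein-gated channels Kcnj3, Kcnj5, Kcnj6 and Kcnj9 were thus closed, apart from a peak of 0.402 at Kcnj3 in replicate 2. Open rectifiers had the highest median of a subfamily with 5 or more genes in replicate 1, at 1.67, but not in replicate 2, where theirs was 1.14 with Kcnj3 included and that of Kcnk was 1.50. Among tandem pore domain genes, Kcnk13, known from microglia, had 1.00 and 1.59, Kcnk12 had 0.639 and 0.684, and Kcnk2, the mechanosensitive TREK-1, had 0.455 and 0.649. Kcnk1, the TWIK-1 channel, had 0.248 and 0.684, the lowest signal of any open member in replicate 1.

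The small-conductance genes Kcnn1, Kcnn2 and Kcnn3 were all open, with 2.22 and 1.97 at Kcnn1 and 1.54 and 1.33 at Kcnn2. In each of these genes replicate 1 was higher than replicate 2. The Kcnn1 peak lay at an internal start over 6 kb into the gene. Among the sodium-activated and large-conductance genes, Kcnt2 had 0.775 and 1.24, Kcnu1, a sperm channel, had 0.278 in replicate 1 alone, and Kcnt1 had no promoter peak.

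Auxiliary subunits, with Kcnrg counted among them, were open in both libraries in 9 of 17 cases, against 44 of 77 pore-forming subunits. The Kcnip genes encode calcium-binding partners of Kv4 channels and all 4 were open. Kcnip3, also known as the calcium-sensing repressor DREAM, had 1.92 and 2.11, and Kcnip2 0.603 and 0.786. Kcnab3 had 2.39 and 1.73 and Kcnab1 0.461 and 0.496. Kcne3 was the one Kcne gene open in both, Kcne4 had 0.455 in replicate 1 alone, and Kcne1, Kcne1l and Kcne2 had none. Of the BK subunits Kcnmb4 was open in both with 0.680 and 0.624, and Kcnmb2 in replicate 2 alone with 0.359.

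**Figure D3:**
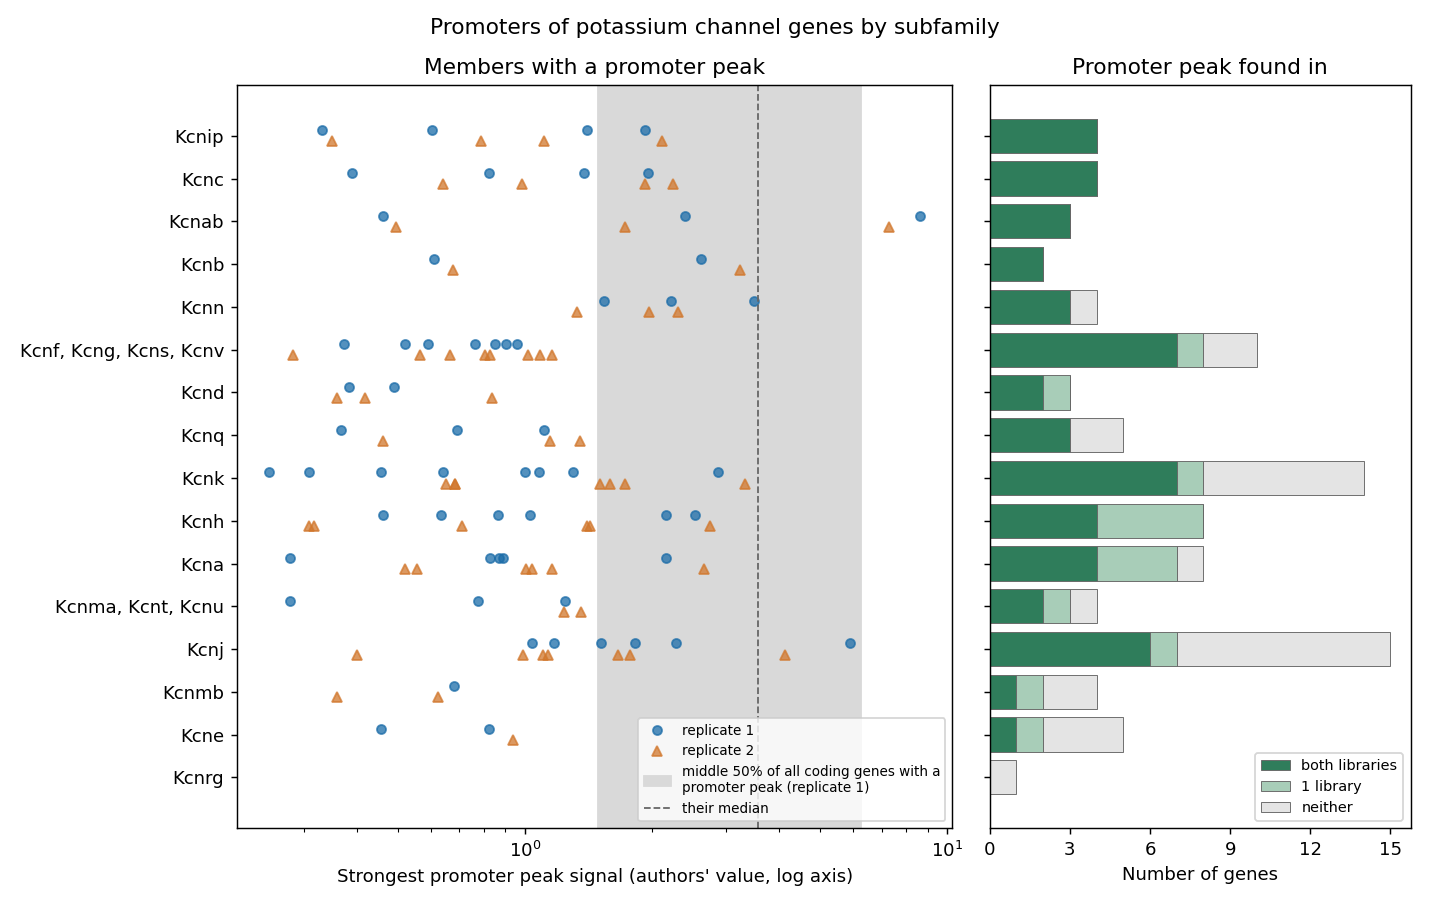
The left panel plots the strongest promoter peak signal (log axis, the authors' value) of each open member by subfamily, with circles for replicate 1 and triangles for replicate 2, a grey band for the middle 50% of all open coding genes in replicate 1 and a dashed line at their median. Most symbols lie left of the band. The right panel counts the genes of each subfamily open in both libraries, in 1 or in neither.

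The 14 members open in 1 library alone were all weak there. In the 6 open in replicate 1 alone (Kcna10, Kcne4, Kcnh3, Kcnh4, Kcnk10 and Kcnu1) the signal ran from 0.278 to 0.864, and in the 8 open in replicate 2 alone (Kcna1, Kcna6, Kcnd2, Kcnh7, Kcnh8, Kcnj3, Kcnmb2 and Kcnv1) from 0.282 to 0.555. The files also list single positions with a q-value under 0.05. Of those 14 genes, 1 had such a position in the other library, and of the 27 genes closed in both, Kcnq1 had one in replicate 1 and Kcne1l in replicate 2. Both libraries listed a position for 54 members, against 63.9% of all genes. The other 25 closed promoters, which include Kcnk4, Kcnk7, Kcnk15, Kcnk16, Kcnk18, Kcnmb3 and Kcnrg, held no listed position, so no opening was detectable at these depths.

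In the 42 members whose strongest promoter peaks overlapped between the libraries, the log2 ratio of replicate 1 over replicate 2, centred on all genes, had a median of −0.31 (quartiles −0.49 to 0.03), against 0 over 12962 genes. Kcnk1 was lowest at −1.59 and Kcnn3 highest at 0.47. Weak promoters of any kind leaned the same way. Among genes of the lowest signal class the median was −0.38 in 32 members and −0.32 in all genes. In the other 11 members open in both libraries, among them Kcna7, Kcnh2 and Kcnma1, the strongest peaks did not overlap.

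Channel promoters fell short of all genes most at CpG-rich starts, which are open in most genes. A start was called CpG-rich where the 1 kb around the 5′ end had an observed over expected CpG ratio above 0.6 and a GC content above 50%. This held for 35 members, or 37.2%, against 44.4% of all protein-coding genes. Of the CpG-rich members 25, or 71.4% (Wilson 95% interval 54.9 to 83.7%), were open in both libraries, against 94.9% of all CpG-rich genes. Their median signal was 1.04 and 1.12, against 4.73 and 4.13 in all CpG-rich genes. In replicate 1, 23 of 27 open CpG-rich members lay below the lower quartile of open CpG-rich genes, and in replicate 2, 24 of 28 did.

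Among the other 59 members, with starts that are not CpG-rich, 28 or 47.5% (35.3 to 60.0%) were open in both, against 37.5% of all such genes. Ranked within its own class of starts, the median open member stood at percentile 9.76 and 8.09 among CpG-rich genes and at 27.1 and 25.8 among the others. The share open thus lay below that of all genes in one class of starts and above it in the other. The median signal in this class was 0.825 and 1.02 in the members and 1.82 and 1.94 in all genes. The CpG-rich members closed in both libraries made up 14.3%, against 3.0% of all CpG-rich genes, and included Kcnj6, Kcnk9, Kcnk15 and Kcnt1. Of these, Kcnj6, Kcnk9 and Kcnt1 are best known from brain. Taking any start in place of the 5′ end gave 36 of 50 CpG-rich members open, against 94.5% of such genes. No test was run on these shares, since the members were chosen with earlier results known.

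The position of open channel promoters was read from the distance to the nearest start. The strongest peak was centred within 150 bp of an annotated start in 38 of 59 open members in replicate 1 (64.4%) and 37 of 61 in replicate 2 (60.7%), against 77.0% and 74.7% of all open genes, a difference that was not tested. In 10 and 9 members (16.9% and 14.8%, against 11.3% and 10.8% of all open genes) it lay over 1500 bp from the 5′ end, at another annotated start, as in Kcnip3, Kcnip4, Kcnk2, Kcne3, Kcnma1 and Kcnn1 in both libraries. Taking the 5′ end alone left 46 members open in both libraries, against 58.5% of all genes. Of the 4 Kcnip genes, 1 was open at its 5′ end.

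Footprints lay in the promoter windows of 58 members in replicate 1 and 54 in replicate 2. Both libraries had one for 50 members, or 53.2%, against 61.5% of all genes (65.0% and 62.7% in replicates 1 and 2). A promoter peak of a member held 2.11 and 2.15 footprints on average, against 3.03 and 3.50 for all coding promoters. Within classes of peak signal this gap was not seen in each class. In the second class of 4 the members had 2.70 and 3.75, against 2.10 and 2.52 in all genes, and in the third 3.67 and 3.46, against 3.86 and 4.61. The strongest peak of Kcnj2 held 5 and 6 footprints.

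The share of channel genes with several distal peaks lay above that of all genes, but not under limits that left out the weak peaks of both libraries. A distal peak was assigned to a gene when it lay in it or within 20 kb. Of the members 48 had 3 or more in replicate 1 and 27 in replicate 2, against 37.7% and 21.2% of all genes. Both libraries had 3 or more for 26, or 27.7% (19.6 to 37.4%), against 19.3% of all genes. With the stricter list the share was 8.51%, against 8.28% of all genes, and with the stronger 50% of peaks it was 8.51%, against 8.55%. With the same number of strongest peaks taken from each library, which trims replicate 1 alone, it was 23.4%, against 17.1%. The median member was 30.8 kb long, against 17.4 kb for all genes, and longer genes have more room. Within 4 classes of length, from short to long, the members had 3 or more in both libraries in 8.33%, 4.35%, 30.0% and 46.2% of cases, against 8.49%, 12.7%, 17.6% and 38.2% of all genes. These shares stand for 1 of 12, 1 of 23, 6 of 20 and 18 of 39 members, below all genes in the 2 shorter classes and above them in the 2 longer ones. Per 100 kb, however, the longest members held 2.29 and 1.13 distal peaks, against 3.17 and 1.56 in all genes of that class. In the shorter classes, from short to long, members held 4.15, 4.39 and 5.27 in replicate 1, against 2.93, 3.54 and 3.61. In replicate 2 they held 5.28, 1.81 and 3.22, against 2.16, 2.50 and 2.22. The 5.28 of the shortest class, with 12 members, includes Kcnk7, the member with the most distal peaks in replicate 2. The density without Kcnk7 was not computed. Of 94 members 11, or 11.7%, had no distal peak in either library, against 27.0% of all genes.

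**Figure D4:**
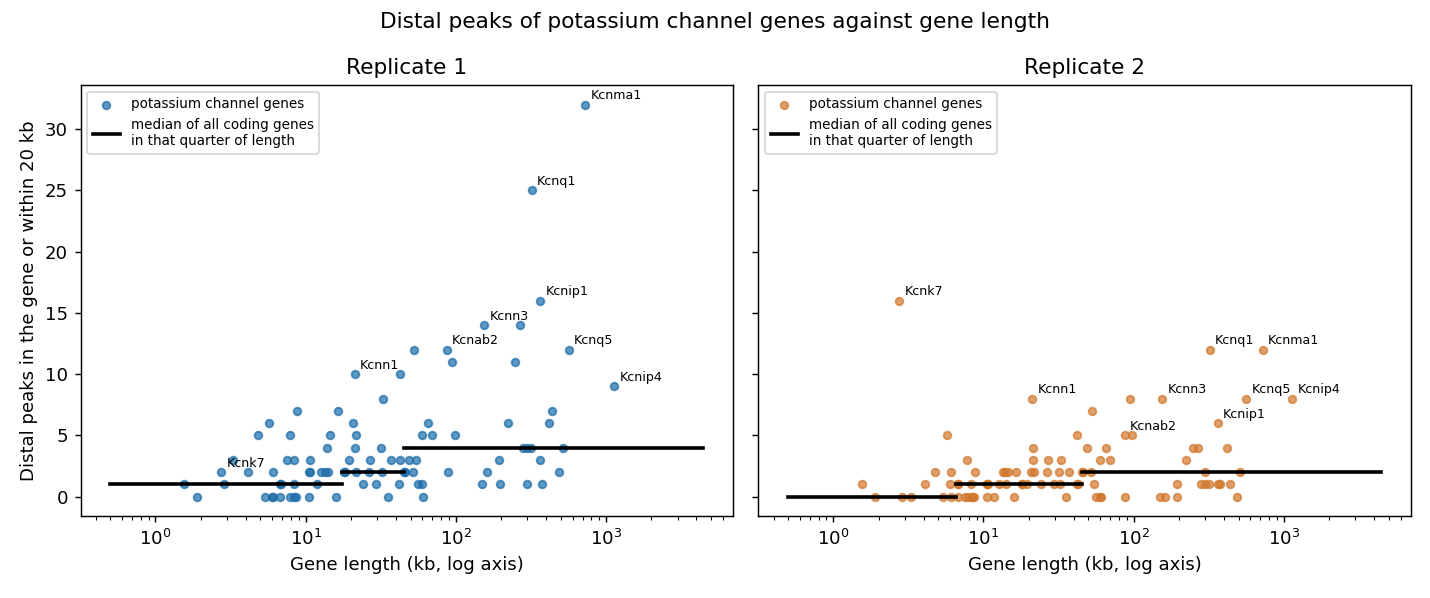
Number of distal peaks in each potassium channel gene or within 20 kb of it (vertical axis) against gene length in kb (log axis), replicate 1 on the left and replicate 2 on the right, with black lines at the median of all coding genes in each of 4 classes of length. Kcnma1 and Kcnq1 stand highest in replicate 1, and Kcnk7 in replicate 2.

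Kcnma1 had the most distal peaks of any member in replicate 1, with 32, and 12 in replicate 2, where Kcnk7 had more. Kcnq1, the channel of the slow cardiac current and of epithelia, followed with 25 and 12, although its promoter was closed. An antisense RNA gene, Kcnq1ot1, which silences neighbouring genes on the paternal chromosome, starts inside Kcnq1. It was looked up after these values were seen, and its start window held 2 and 3 peaks, the strongest of 3.64 and 1.50. The strongest shared distal peak of Kcnq1, shown above, lay 47.7 kb into the gene with 3.11 and 4.12. Kcnn3 had 14 and 8 distal peaks, Kcnq5 12 and 8 and Kcnn1 10 and 8. Kcnip4, the longest of these genes, had 9 and 8, Kcnip1 16 and 6 and Kcnab2 12 and 5. Replicate 1 had more than replicate 2 in 61 members and fewer in 3, Kcna1, Kcnj12 and Kcnk7, with 65530 distal peaks in all in replicate 1 and 34608 in replicate 2. Kcnk7, a short gene with many close neighbours, had 2 in replicate 1 and 16 in replicate 2.

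Distal peaks near the members numbered 393 in replicate 1, of which 172, or 43.8%, overlapped a peak of replicate 2, against 39.8% of all distal peaks. In all, 240 lay in introns, 42 in exons and 111 between genes, and 259 were near no other coding gene. Their median signal was 0.615 and, for the 217 of replicate 2, 0.829, close to the 0.580 and 0.769 of all distal peaks. A footprint lay in 80.9% of them, against 81.1%. Their signal and footprints thus stood near those of all distal peaks, unlike the promoters of the same genes.

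The strongest shared distal peak near a member was centred at −2.46 kb, upstream of Kcnn1, with 9.46 and 6.95, and is also near Ccdc124 and Slc5a5. Kcnn1 had 2 more among the 10 strongest, 22.0 kb (3.79 and 6.14) and 18.5 kb (3.28 and 4.86) downstream of its 5′ end, the nearer in an intron and the farther beyond the 3′ end, both within 20 kb of Arrdc2. Those of Kcnj9 (3.95 and 3.39), Kcnj14 (3.63 and 3.83), Kcnk4 (3.38 and 3.78), Kcnk7 (4.14 and 2.62) and Kcnj4 (2.71 and 3.62) are also near other coding genes. Of the 10, those of Kcnq1 and of Kcnab2 (42.9 kb into the gene, 2.57 and 3.74) were near none. The Kcnc1 peak shown above, at −3.16 kb with 2.13 and 1.97, is also within 20 kb of Myod1, the master regulator of muscle, so its target gene was not tested.

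Letters of known motifs were searched on both strands in the 150 bp around peak centres. In member promoter peaks GGGCGG was found in 44.5% and 38.8%, against 41.1% and 40.9% of all coding promoter peaks, and CAGCTG in 12.4% and 13.4%, against 11.7% and 10.4%. The AP-1 letters TGANTCA were in 0 of 137 and 0 of 134 member promoter peaks, against 3.08% and 2.14%. In distal peaks CAGCTG was in 23.2% and 19.8% of those near members, against 20.9% and 18.8% of all, and the TEAD letters GGAATG in 7.38% and 5.07%, against 10.3% and 9.16%. The CTCF core, added after the data were seen, was in 18.1% and 21.7% of member distal peaks, against 12.5% and 15.1%. MEF2 matches were in 1.78% and 0.922% of them, against 1.56% and 0.824%. A match is a description of letters and does not show binding.

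The REST factor represses neuronal genes, including channels, in other tissues. The core letters of its motif, 15 bases with any base at 2 inner positions, were searched on both strands and found within 1 kb on either side of the 5′ end of 3 of 94 members (3.19%), against 53 of all genes (0.242%). The matches are shown on the strand of the motif, which is the strand of the gene at Kcnh4 and the opposite one at Kcnk12 and Kcnt1, with the motif in capitals, at chr11:100759004-100759032 (-) for Kcnh4, chr17:87798579-87798607 (+) for Kcnk12 and chr2:25864069-25864097 (-) for Kcnt1.
Kcnh4: cgaagttCAGCACCCTGGACAGccgcaca
Kcnk12: ccggcgtCAGCACCGCGGACAGcgcatcg
Kcnt1: cgggactCAGCACCGCGGACAGctccgcc
All 3 starts were CpG-rich. At Kcnh4 the match lay in a peak and a footprint in replicate 1 alone, with a peak signal of 0.633. At Kcnk12 it lay in a peak in both libraries, of 0.639 and 0.684, with a footprint in replicate 1. At Kcnt1 it lay in no peak.

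Of 9 pairs of members within 100 kb of each other, 5 had a single gene open in both libraries. Kcnj10 was open and Kcnj9, 11.9 kb away, closed. Kcnj2 was open, with the second highest signal of all members, and Kcnj16, 38.2 kb away, closed. Kcnk5 was open and Kcnk16, 79.6 kb away, closed, and Kcnip1 was open and Kcnmb1 inside it closed. Kcna2 was open in both libraries and Kcna10, 68.0 kb away, in replicate 1 alone. Kcna3 and Kcna2 were both open, Kcna1 and Kcna6 were both open in replicate 2 alone, and Kcne1 with Kcne2 and Kcnj1 with Kcnj5 were both closed.

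Genes that encode partners of the channels were open in both libraries in 19 of 24 cases, against 63.0% of all genes. Their median signals were 1.47 and 1.60. The sulphonylurea receptors complete the ATP-sensitive channel around Kcnj11 and Kcnj8. Abcc9, the SUR2 form of muscle and vessels, had 1.47 and 1.48, and Abcc8, the SUR1 form, had 1.52 and 0.966. Tmem38a, the TRIC-A potassium channel of the sarcoplasmic reticulum, had 9.50 and 9.59, from a peak shared with Smim7.

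Other ion channel families were compared after the data were seen. Of the 14 sodium channel genes (Scn) 7 were open in both libraries, and of the 26 calcium channel genes (Cacn) 19, against 63.0% of all genes. Median signals were 0.704 and 0.547 in the sodium channel genes and 1.36 and 1.46 in the calcium channel genes. The potassium channel medians of 0.869 and 1.04 lay between those. CpG-rich calcium channel genes were open in 10 of 11 cases, with medians of 1.07 and 1.23, near those of the CpG-rich potassium channel genes. The medians of all 3 families lay below those of all open genes, and no difference between the families was tested.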

How the data were processed

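DNase-seq peaks, footprints and per-position values of 2 gastrocnemius libraries, 1 group, were used as deposited. Per the deposited README notes, lists were made for each library separately from its mm10 alignments, without pooling. The software is not given in the sources used here, neither the aligner nor the callers of peaks and footprints. Peak signals are the authors' deposited values. All signals were whole multiples (within 0.1) of 0.00591 in replicate 1 and 0.00854 in replicate 2, as 1 tag in libraries of 169 M and 117 M tags would give. That reading comes from the values. The deposited q-value is listed only below 0.05. The score-like column of the deposited footprints is the constant 0.01 for all footprints, so only positions were used, of 243784 and 171389 footprints.

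The longer peak list (97499 and 61664 peaks) was used unless stated, with an overlap of at least 1 bp and GENCODE M21 starts of 21938 protein-coding genes. With 1 group no p-value was computed, and counts stand beside those of all protein-coding genes. Signals were ranked within a library. Whether the 2 libraries differ by animal or by sequencing cannot be told apart. Overlap code was tested on simulated data. Tools were Python 3.11.15, pandas 2.3.3, numpy 2.4.6, statsmodels 0.14.6 and matplotlib 3.10.9.

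The members and lists were chosen with earlier results of these data known. Values are given for the 15 members with the highest mean signal percentile, the 10 with the most distal peaks, the strongest of each subfamily, the muscle fibre and vessel wall lists, Abcc8, Abcc9 and the 10 strongest shared distal peaks; others were named after their values were seen. A few genes that these rules name are not reported here. Alternatives covered the start window, the peak list, signal limits, distal reach, footprints and each library alone.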

Additional observations from a re-analysis of the deposited data

How the results depend on the processing

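Main values were 53 members open in both libraries, 8 of 16 subfamilies with most members open, a median percentile of 14.6 (mean of the medians of the 2 libraries), 25 open CpG-rich members, 26 members with 3 or more distal peaks and 50 with a promoter footprint. Stronger limits moved most of them. Fewer peaks lower the counts by construction, whereas the percentile is a rank. With the stronger 50% of peaks, 35 members were open (37.2%, from 56.4%), against 55.8% of all genes (from 63.0%). Under that limit 3 subfamilies had most members open, and 8 members had 3 or more distal peaks (8.51%, against 8.55%). With the stricter list, 2 subfamilies had most members open, the percentile was 11.5 and 8 had 3 or more distal peaks (8.51%, against 8.28%), so the excess of distal peaks over all genes was gone under both limits. The peak nearest to a start gave a percentile of 18.4. Distal counts were 16 inside the gene (17.0%, against 8.01%), 52 with a reach of 50 kb (55.3%, against 38.2%), 70 for 1 or more (74.5%, against 53.8%) and 13 for 5 or more (13.8%, against 7.96%). With 1 library left out, counts ranged from 59 to 61 for promoters, 10 to 12 for subfamilies, 27 to 28 for CpG-rich starts, 27 to 48 for distal peaks and 54 to 58 for footprints, and the percentile from 13.9 to 15.3. Without replicate 2 the distal count was 48, since replicate 1 has more peaks. Unshared peaks turned the promoter share above the background, as given above. The other 32 values for these results moved less than the limits set. CpG-rich at any start, the calls without 1 library at CpG-rich starts, the exclusion of crowded windows of 10 kb with 8 or more peaks and the CTCF core were added after the data were seen. No paired analysis was possible because the study has 1 group. Depth can limit closed calls, but the level at which a site is missed was not measured. The weakest open member promoters held 42 and 33 tags, or signals of 0.248 and 0.282. Over all genes the lowest signals of open promoters were 0.106 and 0.128.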
